A study of Homo sapiens with 16 samples.

Results

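The genes described here encode the proteins that copy DNA and drive entry into S phase. They are 39 genes, taken by symbol from a fixed list that was chosen with earlier results of these data known. All 39 were among the 17738 genes of the deposited table. Poly(A) RNA sequencing measured them in wild-type H1 cells, a standard line derived from a human embryo, with 16 libraries in 8 groups of 2. Every group spent 24 h in E7, which is E8 medium without TGFb and so holds insulin, transferrin, selenite, ascorbate and FGF2. The groups were E7 alone, E7 with TGFb at 1.74 ng/mL, E7 with Activin A at 100 ng/mL and E7 with NODAL at 100 ng/mL. Each medium was used without and with 2-deoxyglucose (2DG) at 3 mM. 2DG is a glucose analog that cells phosphorylate but cannot carry through glycolysis, and the 3 ligands belong to one family, whose receptors phosphorylate SMAD2 and SMAD3. H1 is 1 line. Whether replicates came from different dishes is not given by the labels, so the p-values speak only of the spread among these libraries, which may be technical.

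DNA replication is prepared in G1, when the origin recognition complex, CDC6 and CDT1 load the ring-shaped MCM2-7 helicase onto DNA. In S phase CDC45 and the GINS complex join the ring and open the helix, RPA coats the single strands, and the clamp PCNA, set on DNA by the RFC loader, holds the polymerases in place. Many of these genes are transcribed at the boundary of G1 and S by E2F factors, and pluripotent stem cells are known for a short G1 and a large share of cells in S phase. In bulk libraries such as these, fewer cells in S phase and less RNA per cell cannot be told apart.

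Because E2F factors are the textbook regulators of these genes, the bases upstream of their starts were searched for the E2F forms TTTCCCGC, TTTGGCGC, TTTCGCGC and TTTGCCGC, on both strands. The window was the 250 bases before the gene start (RefSeq, GRCh38.p14). The stretch TTTGGCGCGAAA gives 2 overlapping matches, TTTGGCGC on the strand shown and TTTCGCGC on the other. Of 34 members matched by symbol, 12 (35.3%) held at least 1 match, against 492 of 11367 matched genes of the table (4.33%). The sequences below, 5′ to 3′ on the gene's strand and each from outside the gene's span in GENCODE 29, show matches in capitals for members that fell strongly with 2DG (MCM6, PCNA), that fell less (POLA1) and that fell by little (MCM3).
MCM6 (chr2:135876502-135876615, minus strand): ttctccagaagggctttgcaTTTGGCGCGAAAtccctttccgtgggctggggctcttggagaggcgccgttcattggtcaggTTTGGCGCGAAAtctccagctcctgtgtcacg
PCNA (chr20:5126654-5126701, minus strand): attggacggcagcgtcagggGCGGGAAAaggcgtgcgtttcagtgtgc
POLA1 (chrX:24693761-24693808, plus strand): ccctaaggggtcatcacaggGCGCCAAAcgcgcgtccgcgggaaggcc
MCM3 (chr6:52284889-52284936, minus strand): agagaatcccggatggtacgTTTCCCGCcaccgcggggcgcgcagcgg
MCM6 held 2 copies of that stretch, or 4 matches, and the other sequences shown held 1 match each. A match was present in 9 of 27 promoters of members that fell with 2DG over the 4 media (33.3%) and in 3 of 7 promoters of the other members (42.9%). A second motif, CCAAT on either strand, was present upstream of 19 of 34 members (55.9%) and of 34.5% of the matched genes. A match describes the letters only.

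Values are normalised read counts: each gene's reads over a factor that scales the whole library. The libraries held 14600479 to 17630329 recovered reads. Members ranged from 240 to 9591 normalised reads, and none had fewer than 223 recovered reads in any library, so all 39 passed the filter on low values. Per kilobase of merged exons the mean level over the 16 libraries was highest for PCNA (3133), MCM3 (2214), MCM7 (1929) and MCM4 (1759) and lowest for GINS4 (141), GINS3 (119) and CHAF1B (118). All 12 stem cell markers checked were in the table, led by POU5F1, LIN28A and DPPA4, and their summed level was 137911 to 178577 normalised reads over the libraries. Markers of mesendoderm moved with 2DG too: 7 of 11 were in the table, 6 of these fell over the 4 media, and their summed level was 302 to 361 in E7 and 123 to 125 with 2DG, and 1725 to 1917 with Activin A. Of the other markers, 4 of 12 stem cell markers rose and 3 fell, 1 of 6 fibroblast and stroma markers rose and 4 fell, 1 of 5 neuroectoderm markers fell, and 1 of 3 trophoblast and surface ectoderm markers tested rose and 2 fell. These marker counts stand beside 19.4% of all genes called lower and 19.2% called higher over the 4 media. The part of these marker changes in the results below was not tested. The 2 E7+ActivinA libraries stood apart: the chi-square of their difference was 53.3 per degree of freedom, against 14.7 in E7+ActivinA+2DG, 10 in E7 and 1.58 to 5.27 in the other 5 groups. All comparisons share 1 estimate of the spread, so these libraries enlarge the error of each, and counts without the 4 Activin A libraries are given where they differ. Log2 fold changes also followed exon length across genes in some comparisons.

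Together the 39 members held 0.526 to 0.567% of the recovered reads in the 8 libraries without 2DG and 0.431 to 0.505% in the 8 libraries with it. These ranges do not overlap. The highest share with 2DG was that of E7+ActivinA+2DG replicate 1, and the replicate 2 of that group had the lowest of all 16. Within E7 the share was 0.556 and 0.567%, and with 2DG it was 0.438 and 0.444%. In NODAL medium it was 0.526 and 0.529% without 2DG and 0.453 and 0.455% with it.

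**Figure D1:**
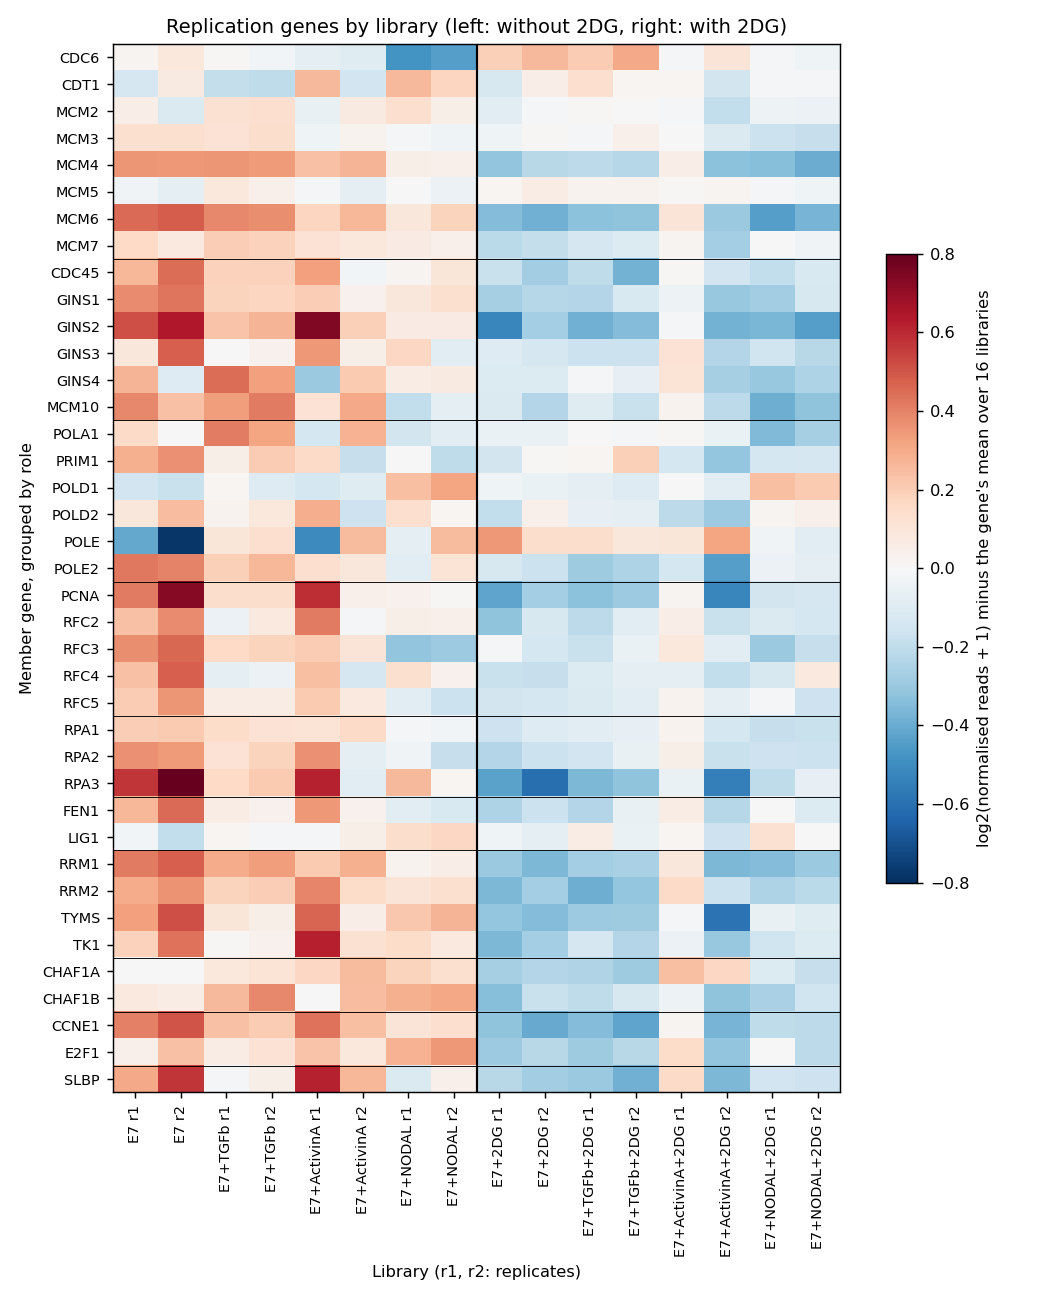
Each row is a member gene, grouped by role, and each column a library, with the 8 libraries without 2DG to the left of the line and the 8 with 2DG to the right; colour is log2(normalised reads + 1) minus the gene's mean over the 16 libraries. Most rows are redder on the left and bluer on the right, while CDC6, CDT1, MCM5, POLD1, POLE and LIG1 are among those that do not follow that pattern.

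The mean effect of 2DG over the 4 media asked whether the glucose analog changed these genes on average over the media. A large response in 1 medium can carry such a call, so it does not show a response in each. Of the 39 members 31 fell (79.5%) and 1 rose (limma, Benjamini-Hochberg adjusted p under 0.05 over all 16714 genes tested). Over all genes tested 19.4% were called lower and 19.2% higher, and the members were chosen with earlier results of these data known. The median log2 fold change was -0.27 over the members (quartiles -0.42 and -0.18) and 0.00 over all genes (quartiles -0.20 and 0.21). In 30 of the 39 the log2 fold change was negative in all 4 media, a share that was not taken over all genes. For 7 members (MCM7, GINS1, GINS2, TYMS, TK1, CHAF1B and CCNE1) every library with 2DG was below every library without it. That held for 1.34% of all genes. The log2 fold change followed exon length with rho = 0.2 across all genes and 0.3 across the members. With that trend removed 32 fell and 2 rose, and the share of all genes then called is not given here. Without the 4 Activin A libraries, as a mean over 3 media and chosen after seeing the data, 32 fell and 2 rose, and 47.7% of all genes were called. The calls of GINS4 and MCM3 were each lost in 9 of the 16 fits that left out 1 library, and that of POLD2 in 10.

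The helicase genes split. MCM4 and MCM6, subunits of the MCM2-7 ring, were among the strongest falls, although the 6 subunits form a single complex. MCM6 had 5778 and 5898 normalised reads in E7 and 3322 and 3226 with 2DG, 5502 and 5460 in TGFb medium and 3357 and 3377 with 2DG, 4761 and 5063 in Activin A medium and 4525 and 3434 with 2DG, and 4484 and 4775 in NODAL medium and 3102 and 3261 with 2DG. Only E7+ActivinA+2DG replicate 1, at 4525, reached the level of a library without 2DG. Over the 4 media MCM6 fell by 0.60 on the log2 scale (SE 0.05, adjusted p = 3.7e-06).

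MCM4 had 9591 and 9528 normalised reads in E7 and 6037 and 6432 with 2DG, 9576 and 9505 in TGFb medium and 6474 and 6415 with 2DG, 8830 and 9071 in Activin A medium and 7767 and 5961 with 2DG, and 7760 and 7700 in NODAL medium and 5911 and 5695 with 2DG. Within each medium both libraries with 2DG were below both without it. MCM4 fell by 0.50 on the log2 scale (SE 0.05, adjusted p = 1.2e-05). MCM7 fell less, by 0.23 on the log2 scale (SE 0.05, adjusted p = 0.0016), with 7204 to 8047 normalised reads without 2DG and 5815 to 7132 with it. MCM3 fell by 0.12 on the log2 scale (SE 0.04, adjusted p = 0.027). The log2 fold changes of MCM2 (-0.10, adjusted p = 0.11) and MCM5 (0.03, adjusted p = 0.59) did not pass the test. MCM5 stood between 3279 and 3670 normalised reads without 2DG and between 3376 and 3606 with it.

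The ratio of MCM6 to MCM5 normalised reads, which does not depend on library scaling, was 1.7 and 1.8 in E7 and 0.948 and 0.895 with 2DG. In TGFb medium it was 1.5 and 1.53 without 2DG and 0.951 and 0.956 with it. In NODAL medium it was 1.29 and 1.43 against 0.904 and 0.966. In Activin A medium it was 1.38 and 1.54 against 1.3 and 0.978. The pair was chosen after its values were seen, and no test was run on it. A ratio shows unequal change of the 2 genes, not which of them held its level.

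**Figure D2:**
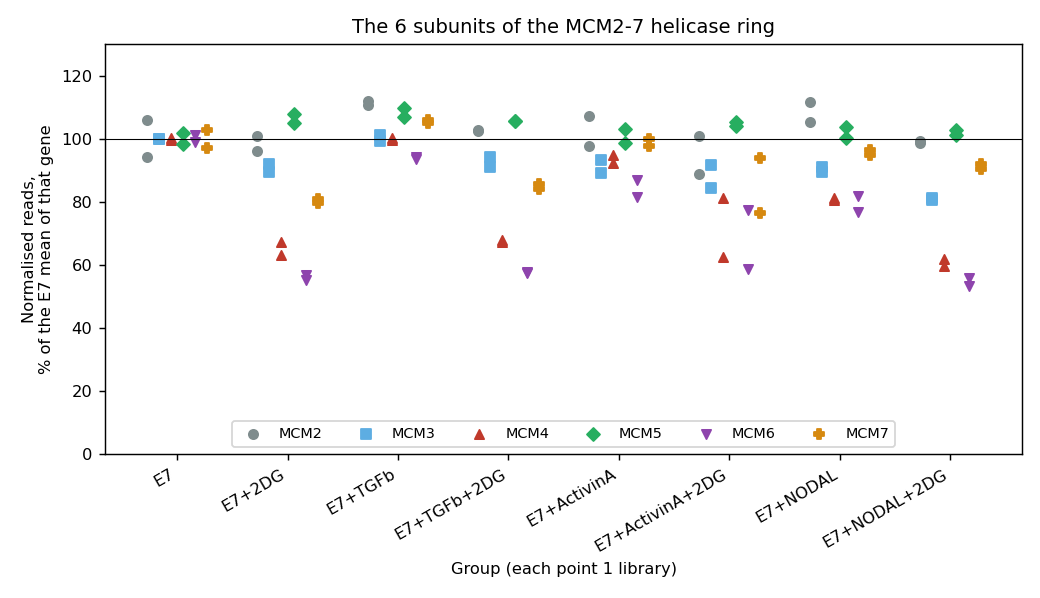
Each point is 1 library, and the vertical axis gives the normalised reads of each MCM subunit as a percentage of that gene's mean in the 2 E7 libraries, for the 8 groups on the horizontal axis. MCM4 and MCM6 lie below MCM2, MCM3, MCM5 and MCM7 in all 8 libraries with 2DG.

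CDC6, which brings the MCM ring to origins, was the 1 member called higher over the 4 media. CDC6 had 3093 and 3232 normalised reads in E7 and 3474 and 3640 with 2DG, 3060 and 2996 in TGFb medium and 3512 and 3758 with 2DG, 2891 and 2849 in Activin A medium and 3010 and 3266 with 2DG, and 2190 and 2243 in NODAL medium and 3026 and 2977 with 2DG. In each medium both libraries with 2DG were above both libraries without it, and the lowest values were those of NODAL medium without 2DG. CDC6 rose by 0.25 (SE 0.04, adjusted p = 0.0003) over the 4 media and by 0.44 (SE 0.08, adjusted p = 0.0064) in NODAL medium. It did not pass the test in E7 (0.17, adjusted p = 0.12), in TGFb medium (0.26, adjusted p = 0.051) or in Activin A medium (0.13, adjusted p = 0.37). CDT1, its partner in loading, had -0.02, adjusted p = 0.83 over the 4 media.

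All 6 genes of the group that activates the helicase fell with 2DG over the 4 media. GINS2, a subunit of the GINS complex, had the largest fall of the 39. GINS2 had 1268 and 1385 normalised reads in E7 and 619 and 735 with 2DG, 1039 and 1074 in TGFb medium and 679 and 697 with 2DG, 1483 and 1012 in Activin A medium and 881 and 683 with 2DG, and 929 and 928 in NODAL medium and 689 and 654 with 2DG. The highest GINS2 value with 2DG, 881, was below the lowest without it, 928. GINS2 fell by 0.68 on the log2 scale (SE 0.08, adjusted p = 3e-05). GINS1 fell by 0.40 on the log2 scale (SE 0.05, adjusted p = 5.1e-05), from 2182 to 2866 normalised reads without 2DG to 1726 to 2067 with it. CDC45, which joins GINS on the ring, had -0.38, MCM10 -0.38, GINS3 -0.27 and GINS4 -0.25, all called.

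PCNA and the 4 RFC genes among the members all fell over the 4 media. PCNA is the sliding clamp of the replicative polymerases. PCNA had 5983 and 7429 normalised reads in E7 and 3345 and 3701 with 2DG, 4926 and 4925 in TGFb medium and 3559 and 3666 with 2DG, 6730 and 4601 in Activin A medium and 4536 and 3114 with 2DG, and 4586 and 4511 in NODAL medium and 4048 and 4073 with 2DG. The replicates of PCNA differed most in the 2 Activin A groups and in E7. PCNA fell by 0.52 on the log2 scale (SE 0.09, adjusted p = 0.00046). RFC2, RFC3, RFC4 and RFC5, subunits of the loader that opens the clamp, had log2 fold changes from -0.28 (RFC2) to -0.18 (RFC5).

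RPA3, the smallest subunit of the single-strand binding complex, showed the second largest fall. RPA3 had 1008 and 1216 normalised reads in E7 and 505 and 447 with 2DG, 758 and 784 in TGFb medium and 529 and 543 with 2DG, 1042 and 639 in Activin A medium and 653 and 464 with 2DG, and 812 and 685 in NODAL medium and 589 and 649 with 2DG. Its 16 values overlapped between 2DG and none only through E7+ActivinA replicate 2 (639) and E7+ActivinA+2DG replicate 1 and E7+NODAL+2DG replicate 2 (653 and 649). RPA3 fell by 0.64 on the log2 scale (SE 0.10, adjusted p = 0.00028). The other subunits fell less, RPA2 by 0.27 on the log2 scale (SE 0.06, adjusted p = 0.0046) and RPA1 by 0.22 on the log2 scale (SE 0.04, adjusted p = 0.00072).

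The 4 genes of nucleotide supply fell together. RRM1 and RRM2 encode the subunits of ribonucleotide reductase, which makes deoxyribonucleotides. RRM1 had 3306 and 3452 normalised reads in E7 and 2016 and 1925 with 2DG, 3047 and 3125 in TGFb medium and 2053 and 2063 with 2DG, 2860 and 3013 in Activin A medium and 2632 and 1928 with 2DG, and 2528 and 2563 in NODAL medium and 1944 and 2013 with 2DG. RRM1 was lower with 2DG in both libraries of each medium and fell by 0.53 on the log2 scale (SE 0.06, adjusted p = 1.6e-05). RRM2 had 5774 and 6011 normalised reads in E7 and 3661 and 3885 with 2DG, 5304 and 5378 in TGFb medium and 3585 and 3783 with 2DG, 6155 and 5203 in Activin A medium and 5224 and 4167 with 2DG, and 5046 and 5124 in NODAL medium and 3958 and 4037 with 2DG. In Activin A medium its libraries overlapped, at 5203 without 2DG and 5224 with it. RRM2 fell by 0.45 on the log2 scale (SE 0.05, adjusted p = 3.5e-05).

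TYMS makes thymidylate and TK1 salvages thymidine. TYMS had 865 and 986 normalised reads in E7 and 555 and 542 with 2DG, 736 and 711 in TGFb medium and 562 and 565 with 2DG, 951 and 715 in Activin A medium and 685 and 457 with 2DG, and 801 and 831 in NODAL medium and 661 and 645 with 2DG. No library with 2DG reached the lowest library without it. TYMS fell by 0.50 on the log2 scale (SE 0.08, adjusted p = 0.00041), but ENOSF1 on the opposite strand overlaps 58.2% of its exon bases, and the strand setting of the counting is not given in the sources used here. TK1 had 882 and 1050 normalised reads in E7 and 605 and 643 with 2DG, 781 and 795 in TGFb medium and 708 and 661 with 2DG, 1195 and 847 in Activin A medium and 752 and 629 with 2DG, and 860 and 821 in NODAL medium and 697 and 720 with 2DG. TK1 libraries likewise did not overlap, and TK1 fell by 0.41 on the log2 scale (SE 0.07, adjusted p = 0.00074). Exon overlaps with other genes above 20% also touch MCM2 (30.7%), RRM2 (27.9%), PRIM1 (26%) and GINS4 (21.2%), so their values depend on how shared reads were assigned.

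Polymerase genes were mixed. POLE2, the second subunit of polymerase epsilon, fell by 0.38 on the log2 scale (SE 0.06, adjusted p = 0.00019). POLA1, the catalytic subunit of the polymerase that primes synthesis, fell by 0.19 on the log2 scale (SE 0.06, adjusted p = 0.018), and POLD2 of polymerase delta by 0.18 on the log2 scale (SE 0.06, adjusted p = 0.04). PRIM1 (-0.16, adjusted p = 0.058), POLD1 (0.03, adjusted p = 0.66) and POLE (0.25, adjusted p = 0.056) did not pass the test.

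POLE, the catalytic subunit of polymerase epsilon, was called higher in E7. POLE had 1289 and 997 normalised reads in E7 and 2171 and 1885 with 2DG, 1831 and 1878 in TGFb medium and 1884 and 1817 with 2DG, 1202 and 2035 in Activin A medium and 1825 and 2127 with 2DG, and 1629 and 2039 in NODAL medium and 1673 and 1614 with 2DG. The 3 lowest values were those of E7 and of E7+ActivinA replicate 1, and the replicates of E7+ActivinA lay further apart than those of any other group. With 2DG in E7 POLE rose by 0.84 (SE 0.20, adjusted p = 0.0074), a call lost without E7 replicate 2 or E7+2DG replicate 1. POLE has the longest merged exons of the members (7840 bases), and in E7 the response to 2DG followed exon length across all genes (Spearman's rho = 0.34) and across the 39 members (rho = 0.53). With the length trend removed from each library POLE had 0.55 (adjusted p = 0.00094) in E7.

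Of the genes that finish and package the new strand, FEN1, the nuclease that trims Okazaki fragments, fell by 0.25 on the log2 scale (SE 0.06, adjusted p = 0.0062). LIG1, which seals them, had -0.03, adjusted p = 0.62. CHAF1A and CHAF1B, subunits of the factor that places histones behind the fork, both fell. CHAF1B had 550 and 543 normalised reads in E7 and 412 and 461 with 2DG, 625 and 682 in TGFb medium and 453 and 478 with 2DG, 523 and 620 in Activin A medium and 508 and 418 with 2DG, and 637 and 646 in NODAL medium and 436 and 467 with 2DG. Its libraries did not overlap between 2DG and none. CHAF1B fell by 0.41 on the log2 scale (SE 0.06, adjusted p = 0.00019) and CHAF1A by 0.23 on the log2 scale (SE 0.04, adjusted p = 0.00047).

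SLBP binds the stem-loop of histone mRNAs. SLBP had 1334 and 1602 normalised reads in E7 and 926 and 890 with 2DG, 1070 and 1116 in TGFb medium and 877 and 826 with 2DG, 1651 and 1297 in Activin A medium and 1200 and 841 with 2DG, and 996 and 1109 in NODAL medium and 972 and 961 with 2DG. Within each medium both libraries with 2DG were lower, in NODAL medium at 972 and 961 against 996 and 1109, and E7+ActivinA+2DG replicate 1, at 1200, was above all 4 libraries without 2DG in TGFb and NODAL media. SLBP fell by 0.43 on the log2 scale (SE 0.08, adjusted p = 0.00078). Of the listed histone genes of the replication-dependent kind, 16 passed the filter. Over the 4 media, where 19.4% of all genes were called lower, 0 of these histone genes rose and 6 fell (median -0.39). Their mRNAs largely lack poly(A) tails and the libraries were made from poly(A) RNA, so only a part of these transcripts was measured.

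CCNE1, the cyclin that activates CDK2 at the start of S phase, was the 1 member called in Activin A medium. CCNE1 had 1073 and 1153 normalised reads in E7 and 650 and 614 with 2DG, 954 and 935 in TGFb medium and 639 and 605 with 2DG, 1097 and 960 in Activin A medium and 826 and 628 with 2DG, and 874 and 891 in NODAL medium and 705 and 704 with 2DG. Its 8 libraries with 2DG were all below its 8 without. CCNE1 fell by 0.56 on the log2 scale (SE 0.06, adjusted p = 1.4e-05) over the 4 media, by 0.81 in E7 and by 0.60 in TGFb medium. In Activin A medium its adjusted p was 0.049, and the call was lost without any 1 of 14 of the 16 libraries. In NODAL medium it had -0.33, adjusted p = 0.13. E2F1, the founding E2F factor, fell by 0.35 on the log2 scale (SE 0.07, adjusted p = 0.0016), from 587 to 728 normalised reads without 2DG to 460 to 634 with it.

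Counts were also taken within each medium. The 2DG response with each ligand was tested separately against that in E7, and those tests called 0 members. Without the 4 Activin A libraries some were called, as given below. The 2DG responses in the ligand media were not tested against each other. In E7 26 members fell and 1 rose, so 66.7% fell where 14.8% of all genes were called lower and 14.6% higher, with a median of -0.48 (all genes 0.00). In TGFb medium 13 fell and 0 rose (33.3% lower, where 4.37% of all genes were lower and 5.47% higher), with a median of -0.31. In NODAL medium 4 fell and 1 rose (10.3% lower, where 2.76% of all genes were lower and 3.11% higher), with a median of -0.17. In Activin A medium 1 fell and 0 rose (2.6% lower, where 0.221% of all genes were lower and 1.48% higher), with a median of -0.24. These comparisons share no library with each other. No member was called in 4 media, 4 were called lower in 3 (MCM4, MCM6, CHAF1A and CCNE1), 9 in 2 and 14 in 1. Such counts by number of media were not taken over all genes.

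Single libraries decided several of these counts. In E7 the count of 27 was 13 without E7 replicate 2, where the share of all genes called was 9.54%. In TGFb medium the count of 13 was 1 or 2 without any 1 of its 4 libraries (2.22 to 2.41% of all genes called). In NODAL medium the count of 5 was 0 without any 1 of its 4 (0.983 to 1.51% of all genes), 3 without any 1 of the 4 TGFb libraries (4 to 4.17%) and 10 or 11 without any 1 of the 4 Activin A libraries (7.71 to 14.8%). Without the 4 Activin A libraries 30 fell and 2 rose in E7, 23 and 2 in TGFb medium, and 12 and 1 in NODAL medium. In that setting 46%, 24.9% and 20.6% of all genes were called in either direction. In Activin A medium 20 fell and 1 rose without E7+ActivinA replicate 2 (33.4% of all genes called), 16 fell without E7+ActivinA+2DG replicate 1 (9.72%), and 0 were called without any other library. The members' replicates in E7+ActivinA+2DG differed by a median of -0.24 (log2, replicate 2 less replicate 1), while all genes had a median of 0.00.

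The log2 response to 2DG followed exon length across all genes in E7 (rho = 0.34) and in Activin A medium (rho = 0.35), less in NODAL medium (rho = -0.13), and in TGFb medium rho was -0.01. These are descriptions across genes, which share libraries and are not independent. With that trend removed from each library 26 members fell and 1 rose in E7, 22 and 1 in TGFb medium, 12 and 1 in NODAL medium and 7 and 0 in Activin A medium. Of all genes 34.3%, 17.6%, 12.4% and 4.74% were then called. In E7 the change of PCNA was -0.92 as deposited and -0.68 with the trend removed (adjusted p = 0.00031). For MCM6 these were -0.83 and -0.85 (adjusted p = 3.1e-05).

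**Figure D3:**
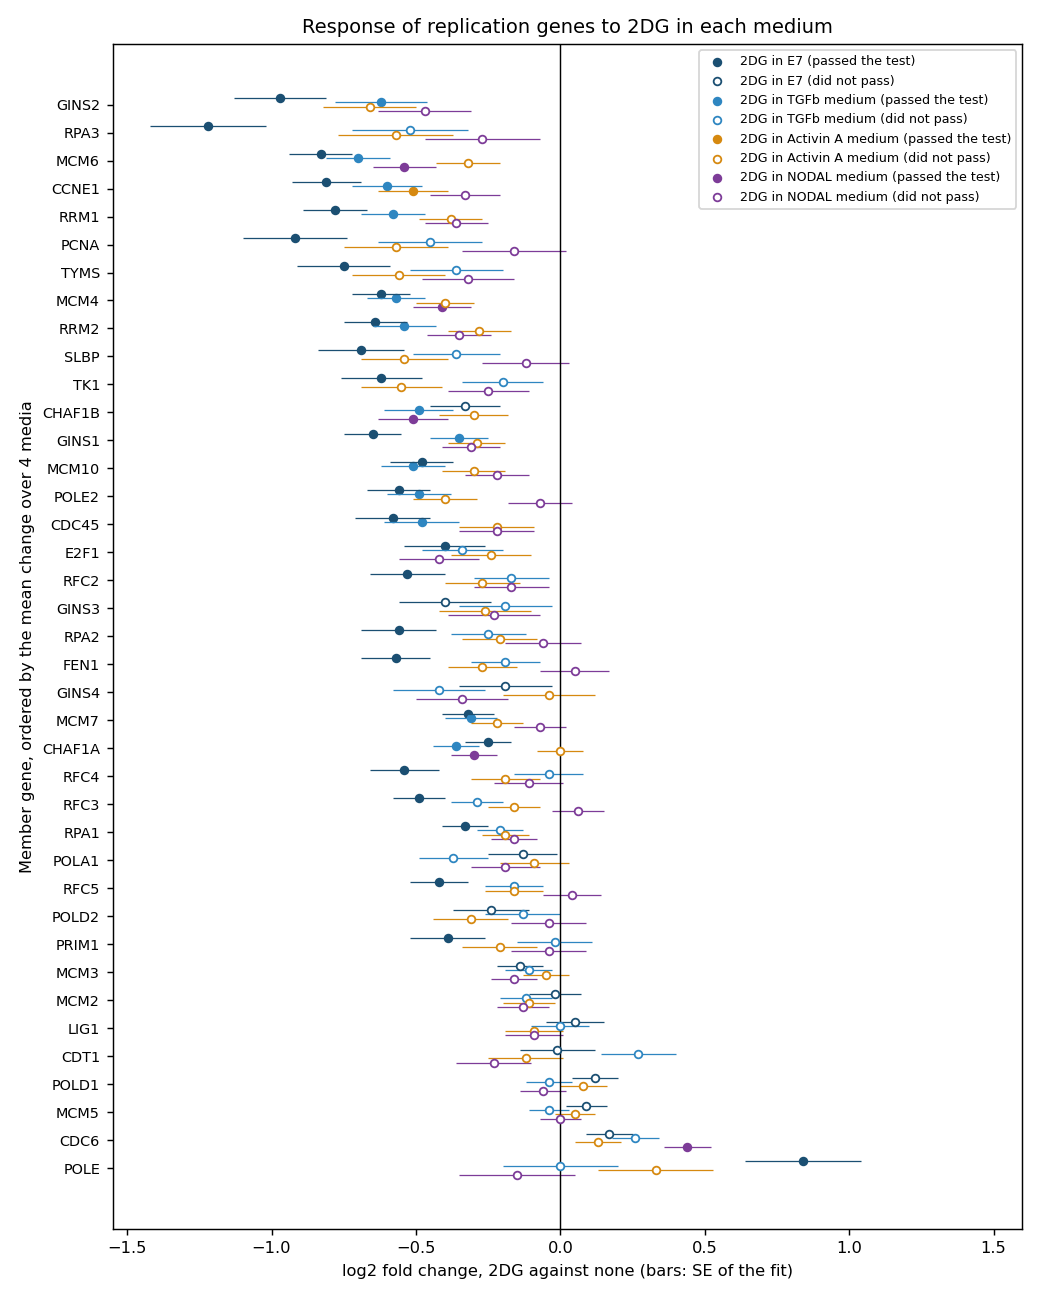
Points give the log2 fold change of each member with 2DG in each of the 4 media, with the SE of the fit as bars; filled points passed the test at an adjusted p under 0.05, and genes are ordered by the mean over the media. Most points lie left of 0, the lowest is RPA3 in E7 at -1.22, and CDC6 lies to the right in all 4 media.

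Whether a ligand changed the response to 2DG was tested as the difference between its 2DG response and that of E7 cells. These tests share the E7 and E7+2DG libraries with each other and with the response in E7. No member passed the test for TGFb, Activin A or NODAL (limma), and edgeR also called 0. Over all genes 0.0%, 0.0419% and 1.87% were called. At an unadjusted p under 0.05 there were 4 members for TGFb (10.3%, all genes 12.1%), 7 for Activin A (17.9%, all genes 9.87%) and 15 for NODAL (38.5%, all genes 26%). For NODAL the median difference over the members was 0.29 and over all genes -0.01. The smallest adjusted p was that of RFC3, with a difference of 0.55 (SE 0.13, adjusted p = 0.051). PCNA had 0.76, adjusted p = 0.084 and POLE had -0.98, adjusted p = 0.061.

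Without the 4 Activin A libraries, 20 members were called with a higher log2 response to 2DG in NODAL medium than in E7, and 1, POLE, with a lower one, where 29.1% of all genes were called. In that fit PCNA had 0.76 (adjusted p = 0.00013), RPA3 0.95 (adjusted p = 0.00016) and POLE -0.98 (adjusted p = 0.00018). For TGFb 8 were called higher and 1 lower in that fit, and 15% of all genes were called. The interaction for NODAL followed exon length with rho = -0.42 across all genes and -0.69 across the members, and that for TGFb with -0.43 and -0.82. With the trend removed 4 members were called higher and 1 lower for NODAL (RFC3, FEN1, RPA3 and CDC6, and POLE), and 8.68% of all genes were called. For TGFb that setting called 0.

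NODAL alone, without 2DG, addressed the response to the embryonic ligand, against the same E7 libraries that the 2DG response in E7 uses. Of the members 14 fell and 2 rose against E7, so 35.9% fell where 10.9% of all genes were called lower and 10.6% higher (median -0.26, all genes 0.01). Of the markers, 6 of 12 for stem cells fell with NODAL, and 2 of 7 for mesendoderm, 2 of 6 for fibroblast and stroma and 1 of 5 for neuroectoderm rose. The summed mesendoderm level was 302 to 361 in E7 and 677 to 696 with NODAL, and that of the stem cell markers 170755 to 178577 and 140208 to 147039. Their part in the result was not tested. The largest fall was in RFC3, a clamp loader subunit with 1909 and 2036 normalised reads in E7 and 1188 and 1205 with NODAL. RFC3 fell by 0.72 on the log2 scale (SE 0.09, adjusted p = 0.00063). CDC6 fell by 0.51 on the log2 scale (SE 0.08, adjusted p = 0.0012). PCNA fell by 0.55 on the log2 scale (SE 0.18, adjusted p = 0.039), a call lost in 11 of the 16 fits that left out 1 library. CDC6 thus fell with NODAL and rose with 2DG in NODAL medium, and these comparisons share the 2 E7+NODAL libraries.

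The 2 members that rose with NODAL were POLE and POLD1, the catalytic subunits of the polymerases of the leading and lagging strands. POLE rose by 0.68 (SE 0.20, adjusted p = 0.026), a call lost in 2 of the 16 fits that left out 1 library. Its E7 values were 1289 and 997 normalised reads. The same 2 libraries enter its change with 2DG in E7, its change with TGFb and its interactions, so these POLE results are not independent. POLD1 had 922 and 905 normalised reads in E7 and 1001 and 988 with 2DG, 1036 and 952 in TGFb medium and 971 and 954 with 2DG, 928 and 958 in Activin A medium and 1029 and 965 with 2DG, and 1213 and 1277 in NODAL medium and 1212 and 1183 with 2DG. The POLD1 values of NODAL medium, with and without 2DG, were above those of all other groups. POLD1 rose by 0.45 (SE 0.08, adjusted p = 0.0035). Leaving out 1 E7 library gave a count of 8 (replicate 1) or 4 (replicate 2) in place of 16, and leaving out 1 E7+NODAL library gave 5 (replicate 1) or 2 (replicate 2). The shares of all genes called were then 17%, 5.02%, 9.34% and 5.25%. Without the 4 Activin A libraries 24 fell and 5 rose, and 39.2% of all genes were called. The log2 fold change followed exon length across all genes with rho = 0.24, and with the trend removed 18 members fell and 2 rose, with 29.3% of all genes called.

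With 2DG present NODAL called 0 members in limma and in edgeR, where 0.634% of all genes were called. At an unadjusted p under 0.05 there were 4 members (10.3%, all genes 16.7%). The median was 0.05. RFC3 had -0.17, adjusted p = 0.38 and PCNA 0.21, adjusted p = 0.54. Without the 4 Activin A libraries 4 were called higher and 3 lower, 17.9% of the members, and 17.9% of all genes were called. The log2 fold change there fell with exon length (rho = -0.36 across all genes).

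**Figure D4:**
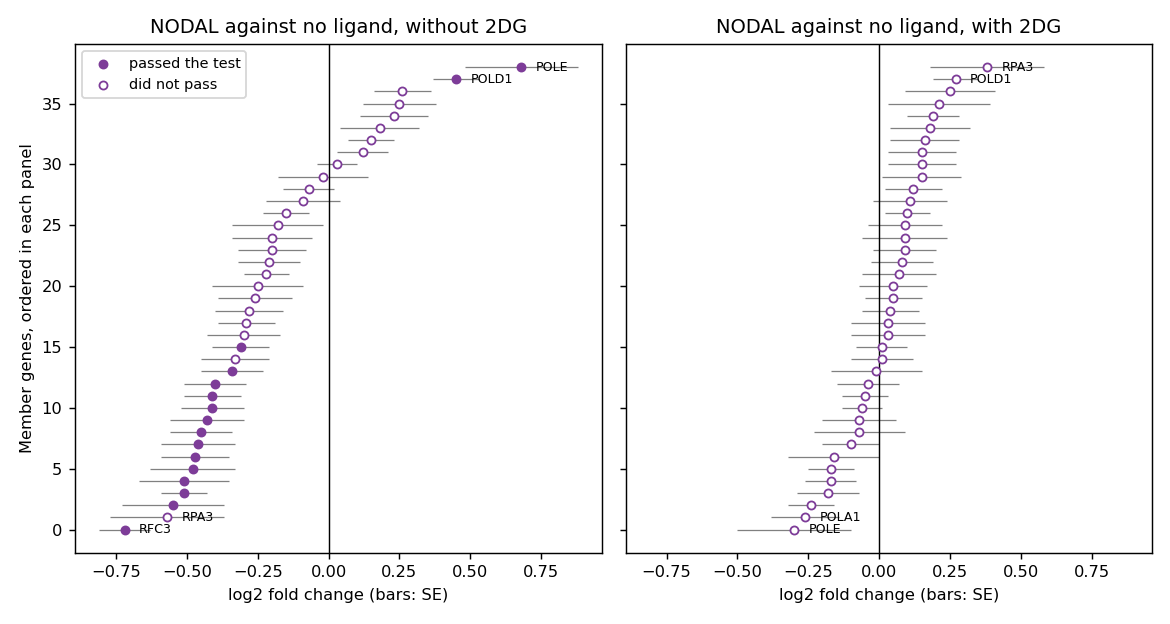
Points give the log2 fold change of the 39 members with NODAL against no ligand, without 2DG on the left and with 2DG on the right, ordered within each panel, with SE bars; filled points passed the test. On the left 14 members below 0 and 2 above 0 passed, from RFC3 at -0.72 to POLE at 0.68, and on the right none did.

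TGFb in E7 called 0 members in limma and in edgeR, and 0.0% of all genes were called. At an unadjusted p under 0.05 there were 12 members (30.8%, all genes 22.6%), and the smallest adjusted p was 0.15. The median was -0.14. Across the 39 members the log2 fold change followed exon length with rho = 0.83, and across all genes with rho = 0.46. PCNA had -0.44, adjusted p = 0.18 and POLE 0.71, adjusted p = 0.15. Without E7+ActivinA replicate 1 or its replicate 2 there were 8 lower and 2 higher, with 20.1% of all genes called, and without the 4 Activin A libraries 12 lower and 4 higher, with 26.7% of all genes called. With the length trend removed from all 16 libraries 0 were called.

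With 2DG present TGFb called 0 members in limma and in edgeR, with 0 at an unadjusted p under 0.05 (all genes 1.63%), 0.0% of all genes called and a range from -0.13 to 0.17. PCNA stood at 3345 and 3701 normalised reads with 2DG alone and at 3559 and 3666 with TGFb added, and MCM6 at 3322 and 3226 and at 3357 and 3377. A p that misses the threshold does not show that the levels were equal.

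Activin A in E7 called 0 members in limma and in edgeR, where 4.74% of all genes were called lower and 5.28% higher. At an unadjusted p under 0.05 there were 9 members (23.1%, all genes 23.8%), and the smallest adjusted p was 0.089. The log2 fold change followed exon length with rho = 0.13 across all genes and 0.47 across the members. The median was -0.10. Without E7+ActivinA replicate 1 there were 11 called lower and 2 higher, with 28.5% of all genes called, and without either E7+ActivinA+2DG library 2 lower, with 11.6% of all genes called. With 2DG present Activin A called 1 member, CHAF1A, the large subunit of the chromatin assembly factor, where 4.27% of all genes were called higher and 3.25% lower. CHAF1A had 2047 and 2091 normalised reads in E7+2DG and 2913 and 2765 in E7+ActivinA+2DG, and without 2DG 2468 and 2457 in E7 and 2757 and 2929 with Activin A. It was higher with Activin A in both libraries of each pair of groups. CHAF1A rose by 0.46 (SE 0.08, adjusted p = 0.0018) with 2DG present and had 0.21, adjusted p = 0.11 without it. Without E7+ActivinA+2DG replicate 2 the count was 5 (8.51% of all genes called), and without either E7+ActivinA library 2 (11.6 and 11.7%), all higher.

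Other genes of the same processes, from lists that hold no member, gave the counts below for 2DG over the 4 media. In that comparison 19.4% of all genes were called lower and 19.2% higher, and no list was tested as a set. Of 15 genes of origin recognition and firing 9 fell and 1 rose. GMNN, the inhibitor of CDT1, fell by 0.63 on the log2 scale (SE 0.09, adjusted p = 0.0001). DONSON had -0.30 and the kinase CDC7 -0.28. TICRR, which helps to load CDC45, rose by 0.35. The TICRR means without and with 2DG were 731 and 1187 in E7 and 999 and 1194 in TGFb medium. They were 809 and 1022 in Activin A medium and 953 and 988 in NODAL medium. Of 11 further polymerase and loader subunits 5 fell and 1 rose, with POLD4 (-0.73), the large loader subunit RFC1 (-0.27) and POLA2 (-0.23) lower and CHTF18 (0.21) higher. Of 13 genes of fork protection and processing 5 fell and 1 rose, among them RECQL (-0.50) and the nucleases DNA2 (-0.33) and EXO1 (-0.32).

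Of 7 further genes of nucleotide supply 5 fell and 1 rose. DUT, which breaks down dUTP, fell by 0.57 on the log2 scale (SE 0.09, adjusted p = 0.0004). DCTPP1 had -0.59 and the kinase DCK -0.36. Of 8 genes of chromatin replication 6 fell and 0 rose, with the histone chaperones ASF1B (-0.67) and NASP (-0.43), UHRF1 (-0.45) and the acetyltransferase HAT1 (-0.45).

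Of 26 measured genes of G1 to S control 9 fell and 2 rose, where 19.4% of all genes were lower and 19.2% higher. CCNE2, the second cyclin E, had -0.67 and CDK2, the kinase partner of both, -0.42. The values of CCNE2 were low, at 36.6 to 116 normalised reads. CDKN1A, the CDK inhibitor p21, also fell, by 0.68 on the log2 scale (SE 0.08, adjusted p = 3.2e-05). CDK6, a kinase of G1, rose by 0.73 (SE 0.12, adjusted p = 0.00033). The medians of these 6 lists ran from -0.36 (nucleotide supply) to -0.07. Across all genes the log2 fold change in this comparison followed exon length with rho = 0.2. Values of the listed genes with that trend removed are not given here.

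The profile of the members was not uniform. The Pearson correlation of each member's log2 value with the mean of all members' standardised values over the 16 libraries was 0.97 for RRM1, 0.96 for GINS2, CCNE1, GINS1 and MCM4, and 0.95 for MCM6. It was 0.01 for LIG1, -0.27 for POLD1, -0.28 for MCM5, -0.39 for CDC6 and -0.64 for POLE. The genes outside all lists with the profile most like the members' mean were FH (r = 0.979), ANAPC5 (0.974), LAS1L (0.971), MFAP1 (0.969) and OAT (0.965). These correlations are descriptions over libraries that share their groups.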

How the data were processed

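The authors deposited 1 table of normalised signal per gene and library: read counts divided by a library factor, as the values show. Per the submitters' processing notes, Trimmomatic 0.36, STAR, featureCounts 1.5.3 and DESeq2 1.26.0 were used with hg38; annotation, strand setting and gene filter are not given in the sources used here. Dividing by 1 read's worth recovered whole reads for 100.0% of values (tolerance 1e-06). Every gene has at least 1 read in every library.

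Here log2(value + 1) was fitted with limma 3.58.1 (R 4.3.3, intensity trend) as 8 group means over 16 libraries, for 16714 genes at 10 or more in at least 2 libraries, with 14 contrasts and Benjamini-Hochberg adjustment within each; adjusted p under 0.05 is called. A log2 fold change is on the log2(value + 1) scale, and SE is that of the fit. Alternatives were TMM factors, a pseudocount of 8, no filter, only the compared libraries, a replicate block, no Activin A libraries, edgeR 4.0.16 on recovered reads, removal of a loess trend on GENCODE 29 exon length (16352 genes), and each library left out.

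The members and lists were chosen with earlier results of these data known. Values in every library are given for the 12 members of largest change with 2DG over the 4 media and for members called against the majority; of each other list, up to 4 called genes of largest change are named, except some that are not reported here; the 5 most alike genes are the highest correlations outside all lists.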

Additional observations from a re-analysis of the deposited data

How the results depend on the processing

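Over the 95 member results that passed the test, no setting run reversed a direction. Calls lost were 0 with a pseudocount of 8, 1 with TMM factors, 1 with edgeR, 2 each without a filter, with only the compared libraries and with the length trend removed, 8 with the replicate block, and up to 32 with a library left out (E7 replicate 2). Counts of members called, all genes adjusted together, moved by over 1.5 times as follows. Apart from fewer samples or another error estimate in a setting, the cause was not tested. These counts stand here without the share of all genes called in the same fit, so they describe the settings and do not single out the members. For 2DG in TGFb medium (13) they were 32 with only the compared libraries, 25 without the Activin A libraries and 23 with the length trend removed. For 2DG in Activin A medium (1) they were 0 with TMM factors, 0 with only the compared libraries, 0 with the replicate block and 7 with the length trend removed. For 2DG in NODAL medium (5) they were 22, 13 and 13 under the settings given for TGFb medium. Without the Activin A libraries they were 16 for TGFb in E7 (0), 29 for NODAL in E7 (16), 7 for NODAL with 2DG (0), 9 for the change of the 2DG response by TGFb (0) and 21 for that by NODAL (0). With only the compared libraries these were 8 for TGFb in E7, 8 for NODAL with 2DG, and 4 and 17 for the changes by TGFb and NODAL. With the length trend removed they were 5 for Activin A in E7 (0) and 5 for the change by NODAL.

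With each library left out in turn, counts ranged from 13 to 30 for 2DG in E7, 1 to 20 in TGFb medium, 0 to 21 in Activin A medium, 0 to 11 in NODAL medium and 29 to 34 over the 4 media. They ranged from 0 to 10 for TGFb, 0 to 13 for Activin A and 2 to 24 for NODAL in E7. With 2DG present they were 0 for TGFb, 1 to 5 for Activin A and 0 to 3 for NODAL. For the change of the 2DG response they were 0 to 3 (TGFb), 0 to 11 (Activin A) and 0 to 13 (NODAL). A group left with 1 library is assumed to vary like the others. The share of all genes called also changed between these fits, so the ranges do not single out the members.

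Whether same-numbered libraries share more than a number is not given by the labels and was not tested. The deviations of same-numbered libraries correlated from -0.39 to 0.24 over 28 pairs of groups, with 3 above 0.1. With the replicate block 26 members were called for 2DG in E7, 11 in TGFb medium, 4 in NODAL medium and 31 over the 4 media, and 14 for NODAL in E7. The share of all genes called in that fit is not given here. The members had at least 223 reads in every library; the effect of depth on the calls was not tested.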
